A study of Homo sapiens with 8 samples.

Results

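The 10 genes described here encode ligands, receptors and SMADs of the transforming growth factor-β (TGF-β) and activin pathways: TGFB1, TGFB2, TGFBR1, TGFBR2, ACVR1B, ACVR2A, SMAD2, SMAD3, SMAD4 and SMAD7. They were chosen by symbol and not by a cutoff on level, though earlier results of these data were known. All 10 were found among the 54261 genes of the count table. The study sequenced total RNA of 5 untreated cell lines, and 3 of these lines were sequenced again under hypoxia, giving 8 libraries. HIEC6 and NCM460 are labelled as intestinal epithelial lines of normal origin, and DLD1, HCT116 and HCT8 as colorectal cancer (CRC) lines. All were grown in DMEM with fetal bovine serum and carry the label of passage 5. The labels name no agent, knockout or transgene, and do not give the oxygen level or the length of the hypoxia treatment. Each library is 1 culture, so the replicates of a group are different lines, and p-values of comparisons between groups measure the spread between lines and cultures. The fits that hold the line as a term have 1 library per line and treatment, so no replicates within a line. Their p-values rest on how far the difference between hypoxia and untreated libraries varies between lines. They hold no spread between the levels of the lines. DLD1 and HCT8 are listed by cell repositories as lines from the same tumor, so they do not count as unrelated donors. The question addressed was whether the RNA of the receptors of these pathways was lower in the CRC lines than in HIEC6. Receptor loss is typical of colorectal cells with unstable microsatellites. RNA counts do not measure receptor protein, so they cannot show whether a working receptor was kept or lost.

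TGF-β and activin ligands bind a type II receptor kinase (TGFBR2 or ACVR2A), which recruits and phosphorylates a type I receptor kinase (TGFBR1 or ACVR1B). The type I receptor phosphorylates SMAD2 and SMAD3, which join SMAD4 and move to the nucleus, while SMAD7 is induced by the pathway and shuts the receptors down. In the colon the pathway restrains epithelial growth, and tumors that lack mismatch repair often carry frameshifts in runs of a single base within the coding sequences of TGFBR2 and ACVR2A.

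These runs are shown because they are the part of the receptor genes on which the choice of genes turned. They were read from the GRCh37 reference genome with GENCODE gene models, on the plus strand, with the run in capitals. The counts do not show the length of a run in any of these lines.
TGFBR2, exon 3, chr3:30691862-30691891: attatgaaggAAAAAAAAAAgcctggtgag
ACVR2A, exon 3, chr2:148657030-148657059: tgattgtgtagAAAAAAAAgacagccctga
ACVR2A, exon 10, chr2:148683675-148683704: ttgttgtgcatAAAAAAAAgaggcctgttt
TGFB2, exon 5, chr1:218609360-218609389: agtccactaggAAAAAAAAcagtgggaaga
On GRCh37, TGFBR2 spans 30648093 to 30735634 of chromosome 3, ACVR2A 148602086 to 148688395 of chromosome 2 and TGFB2 218518678 to 218617961 of chromosome 1, all on the plus strand. The run of TGFBR2 has 10 bases and was the longest among the coding sequences of the 10 genes. ACVR2A holds 2 runs of 8 A bases, TGFB2 holds 1, and SMAD7 holds a run of 8 C bases in exon 2. In the other 6 genes the longest run was 5 or 6 bases.

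Total counts lay between 45519306 and 57374239 per library, and 3 counts, taken as the floor of detection, corresponded to 0.0523 to 0.0659 CPM (counts scaled to a column total of 1e6). Intervals below cover counting error only. The library labelled NCM460 resembled HCT116 in its counts (Pearson correlation of log2(CPM + 1) across genes 0.994, against 0.924 with HIEC6). Results are therefore given with and without that library. In HIEC6 the epithelial markers EPCAM and CDH1 measured 0.176 and 3.03 CPM and the mesenchymal gene VIM 1223 CPM, whereas the keratins KRT8 and KRT18 measured 4290 and 3725 CPM. Most other fibroblast markers were low in HIEC6. There FN1 measured 116.7 CPM and COL1A1 46.0 CPM, but PDGFRB 8.6, ACTA2 5.41 and COL3A1 1.16 CPM. COL1A2, COL6A3, THY1, DCN and LUM measured at most 0.458 CPM in HIEC6. EPCAM measured 198 to 651 CPM in the other 7 libraries. The extraction protocol of the labels names a brain region, and of 5 neural marker genes RBFOX3, SNAP25 and GFAP measured at most 0.899 CPM in every library. The other 2 were found: MBP measured 10.8 to 117.5 CPM over the 8 libraries, and SYT1 68.8 to 159.4 CPM in the HCT116 libraries and the library labelled NCM460 and at most 1.43 CPM elsewhere.

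Of the ligands, TGFB1 was found in every library, and TGFB2 separated the lines. TGFB1, the most widely produced isoform, measured 32.5 CPM in HIEC6 and 83.3 CPM in the library labelled NCM460. In the untreated CRC lines it measured 47.3 CPM in DLD1, 78.0 CPM in HCT8 and 89.4 CPM in HCT116. Under hypoxia it measured 57.05 CPM in DLD1, 93.9 CPM in HCT8 and 138.5 CPM in HCT116. HIEC6 was the lowest of the 8 libraries, and each hypoxia library lay above the untreated library of its line. TGFB2, another isoform, measured 27.1 CPM in HIEC6 but 0.386 CPM (19 counts) in the library labelled NCM460. It measured 31.1 CPM in DLD1, 13.5 CPM in HCT8 and 1.03 CPM (54 counts) in HCT116, and under hypoxia 32.7, 7.29 and 0.632 CPM (35 counts) in the same order. The highest library exceeded the lowest by 84.6-fold, the widest range of the 10 genes. In counting error, the 3 lowest libraries stood apart from all others, with a highest upper limit of 1.35 CPM against a lowest lower limit of 6.53 CPM. Per kilobase of transcript, TGFB1 lay above TGFB2 in all 8 libraries, for example 11.7 against 4.62 CPM per kilobase in HIEC6.

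**Figure D1:**
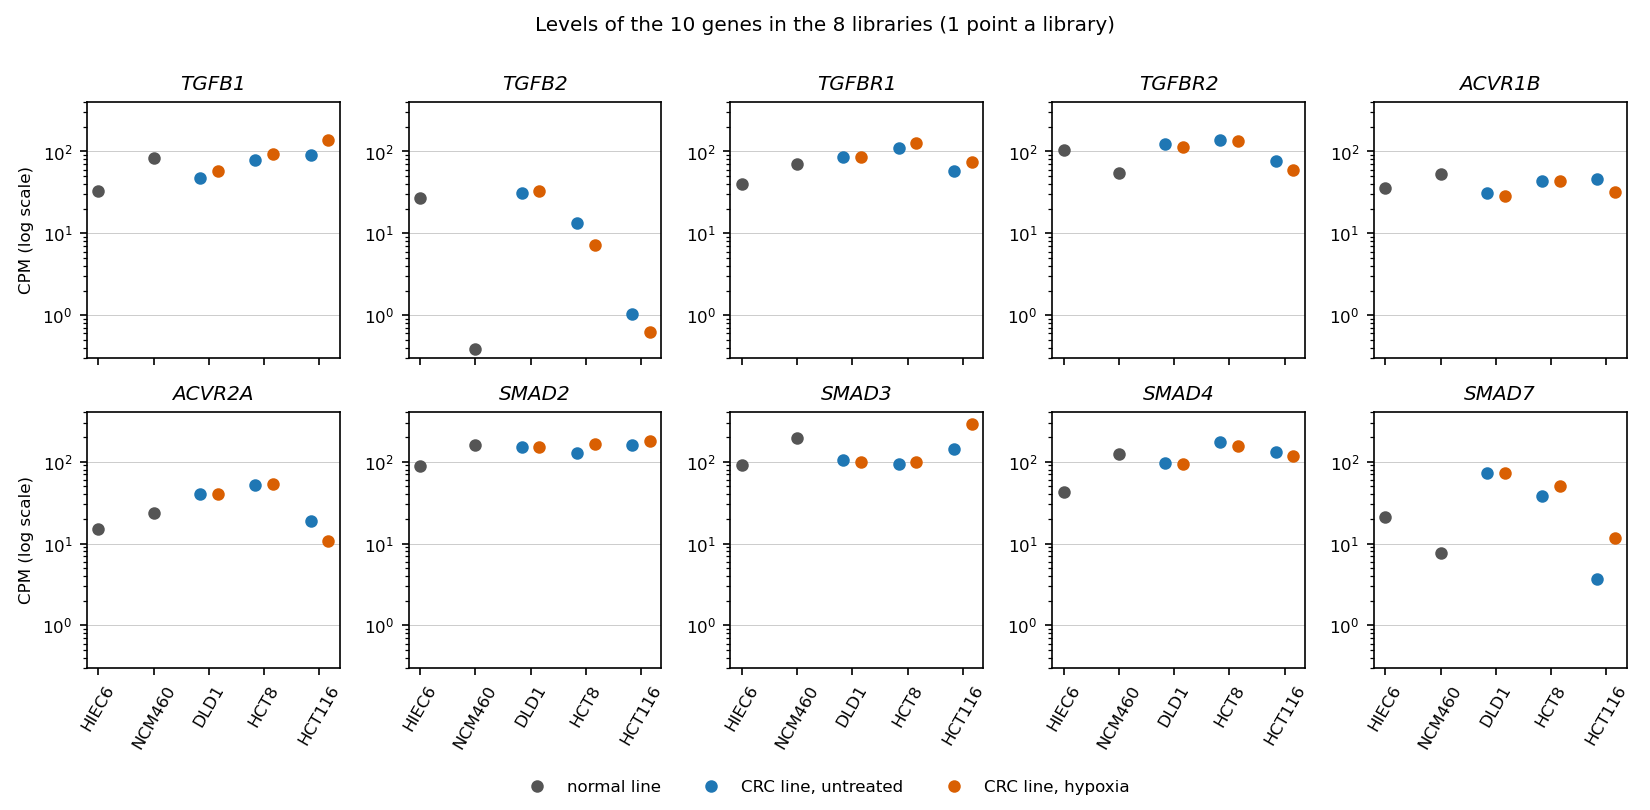
Level of each of the 10 genes (CPM by column total, log axis) in the 5 cell lines, 1 point per library. Grey points are the lines labelled normal, blue points the untreated CRC lines and orange points the CRC lines under hypoxia. TGFB2 and SMAD7 span 84.6-fold and 20.0-fold between the lowest and the highest library, and the other 8 genes span 1.87-fold to 5.0-fold.

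Because TGFB2 varied most, the 250 bases before its start are shown (RefSeq, GRCh38.p14, plus strand, chr1:218345086-218345335). Capitals mark an E-box, CACGTG, 49 bases before the start, and a CRE-like motif, TGACGTG, matched on the minus strand as CACGTCA 72 bases before it. Both strands were searched and these matches do not overlap.
TGFB2: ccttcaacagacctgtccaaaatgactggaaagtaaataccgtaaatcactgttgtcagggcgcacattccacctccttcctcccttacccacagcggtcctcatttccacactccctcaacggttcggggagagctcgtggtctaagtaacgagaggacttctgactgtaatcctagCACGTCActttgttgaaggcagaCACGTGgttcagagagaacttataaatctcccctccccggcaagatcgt
Of 35116 such windows, 6.34% hold the E-box letters and 1.68% the CRE-like letters. A match of letters is a description of the reference and shows no binding in these lines.

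RNA of all 4 receptors was detected in all 8 libraries, and that of the type II receptor TGFBR2 measured at least 59.3 CPM in every CRC library. TGFBR2 measured 104.5 CPM in HIEC6 and 53.9 CPM in the library labelled NCM460. It measured 124 CPM in DLD1, 138 CPM in HCT8 and 77.1 CPM in HCT116 without treatment, and 114, 135 and 59.3 CPM under hypoxia. From the highest, the order of lines was HCT8, DLD1, HIEC6, HCT116 and the library labelled NCM460. The lowest CRC library, HCT116 under hypoxia, still held 3285 counts of the gene. Among neighbors in this order, the 95% counting intervals overlapped between the 2 HCT8 libraries (135 to 142 and 132 to 138 CPM).

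TGFBR1, the type I partner of TGFBR2, measured 39.9 CPM in HIEC6 and 71.1 CPM in the library labelled NCM460. It measured 85.9 CPM in DLD1, 110 CPM in HCT8 and 58.2 CPM in HCT116, and under hypoxia 86.3, 128 and 74.0 CPM. HIEC6 was again the lowest library. Per kilobase of transcript, TGFBR2 lay above TGFBR1 in all 8 libraries, by the widest margin in HIEC6 (23.1 against 6.14 CPM per kilobase) and the narrowest in the library labelled NCM460 (11.9 against 10.9 CPM per kilobase).

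ACVR2A, the type II activin receptor, measured 14.9 CPM in HIEC6 and 23.8 CPM in the library labelled NCM460. It measured 40.2 CPM in DLD1, 51.4 CPM in HCT8 and 18.7 CPM in HCT116, and under hypoxia 40.0, 53.3 and 10.7 CPM. The 4 libraries of DLD1 and HCT8 lay above the other 4. ACVR1B, the type I activin receptor, varied least of the 10 genes, by 1.87-fold. It measured 36.3 CPM in HIEC6, 53.1 CPM in the library labelled NCM460, 30.8 CPM in DLD1, 43.2 CPM in HCT8 and 46.0 CPM in HCT116, and 28.4, 43.9 and 32.4 CPM in these CRC lines under hypoxia. Per kilobase, ACVR2A lay above ACVR1B in the 4 libraries of DLD1 and HCT8 and below it in the other 4, the values in HCT116 being 3.58 against 10.2 CPM per kilobase.

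The receptor-regulated SMAD2 measured 87.9 CPM in HIEC6 and between 129 and 177 CPM in the other 7 libraries, with HCT8 the lowest of these and HCT116 under hypoxia the highest. SMAD3, the other receptor-regulated member, measured 91.9 CPM in HIEC6, 195 CPM in the library labelled NCM460, 104 CPM in DLD1, 93.6 CPM in HCT8 and 145 CPM in HCT116. Under hypoxia it measured 98.9 CPM in DLD1, 99.98 CPM in HCT8 and 285 CPM in HCT116. The 3 highest SMAD3 libraries were those of HCT116 and the library labelled NCM460.

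SMAD4, the partner shared by all receptor-regulated SMADs and a common loss in colorectal tumors, was lowest in HIEC6 at 42.9 CPM. It measured 124 CPM in the library labelled NCM460, 96.2 CPM in DLD1, 173 CPM in HCT8 and 131 CPM in HCT116, and 93.8, 157 and 116 CPM in the CRC lines under hypoxia. No library lacked SMAD4 RNA, and each CRC library held at least 4929 counts. The inhibitor SMAD7 measured 21.1 CPM in HIEC6, 7.58 CPM in the library labelled NCM460, 72.8 CPM in DLD1, 37.6 CPM in HCT8 and 3.64 CPM (190 counts) in HCT116. Under hypoxia SMAD7 measured 72.9, 50.2 and 11.7 CPM in these CRC lines. As for TGFB2, the library labelled NCM460 and the HCT116 libraries were the 3 lowest.

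Against HIEC6, no gene passed the test in the untreated CRC lines, and TGFBR2 lay below HIEC6 in HCT116 only, while ACVR2A and SMAD4 lay below it in none of the 3 lines. After TMM normalization, which rescales each library to the bulk of its genes, the log2 difference of TGFBR2 from HIEC6 was 0.01 in DLD1, 0.03 in HCT8 and -0.63 in HCT116. For ACVR2A it was 1.20, 1.42 and 0.14 in the same order. In CPM, 6 of the 10 genes (TGFB1, TGFBR1, ACVR2A, SMAD2, SMAD3 and SMAD4) lay higher in all 3 CRC lines than in HIEC6, against 43.1% of the genes tested, and 0 lay lower in all 3, against 22.7% (65.8% in either direction). After TMM normalization SMAD3 no longer did, since it differed from HIEC6 by -0.06 in DLD1 and -0.34 in HCT8. In bulk RNA, fewer cells of a type and less RNA per cell cannot be told apart.

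edgeR's quasi-likelihood test of the 3 CRC lines against HIEC6 treated the single HIEC6 library as varying like the CRC lines. It called 0 of 18994 genes (0.0%) at a Benjamini-Hochberg adjusted p under 0.05, hence 0 of the 10, and 2994 genes (15.8%) had an unadjusted p under 0.05. Of the 10 genes 1, SMAD4, was among the latter, with a log2 fold change of 1.36 (SE 0.427, edgeR adjusted p = 0.279). DESeq2, which called 22.1% of these genes, gave SMAD4 a log2 fold change of 1.31 with an adjusted p = 0.00622. TGFBR2 had a log2 fold change of -0.16 (SE 0.386, edgeR adjusted p = 0.851) and ACVR2A of 1.02 (SE 0.65, edgeR adjusted p = 0.478). The median log2 fold change of the 10 genes was 0.53, and that of all genes tested 0.19. HIEC6 also differed from the CRC lines in EPCAM, CDH1 and VIM, given above, and the part of that difference in these values was not tested.

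**Figure D2:**
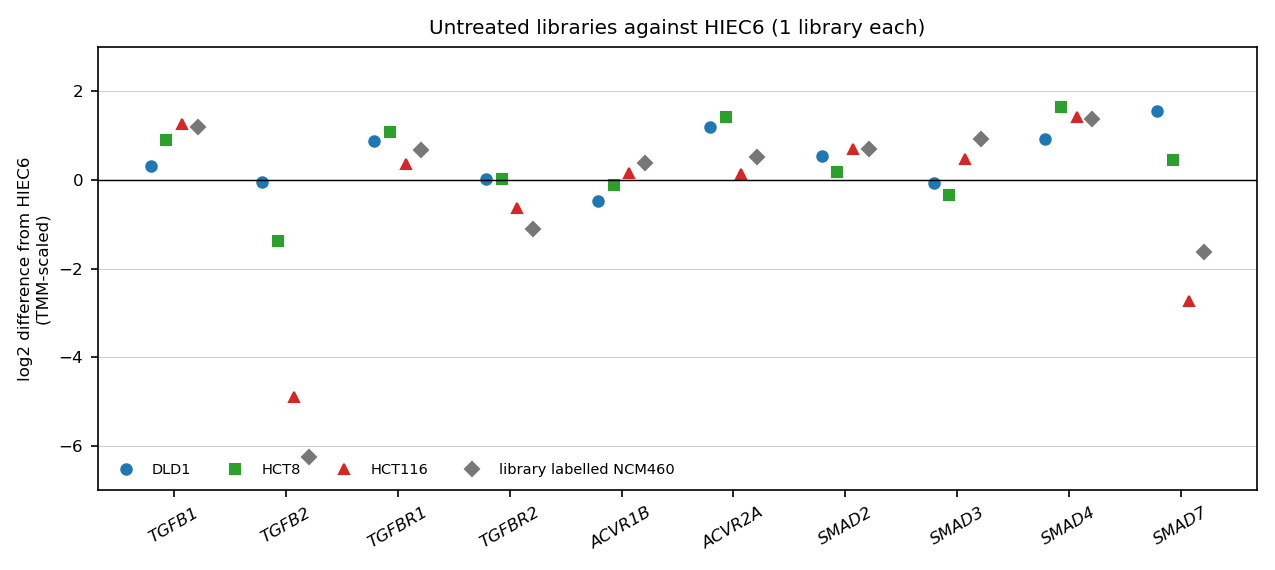
Log2 difference of each untreated library from HIEC6 after TMM normalization, for the 10 genes (1 library per point, no error). DLD1, HCT8 and HCT116 are the CRC lines and grey diamonds the library labelled NCM460. TGFBR2 lies at 0.01 and 0.03 in DLD1 and HCT8 and at -0.63 in HCT116, and the lowest points are TGFB2 in HCT116 and in the library labelled NCM460.

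With the library labelled NCM460 added, so that both lines labelled normal were compared with the 3 CRC lines, the values of the groups overlapped for all 10 genes, whereas 18.2% of the genes tested did not overlap (13.2% higher and 4.99% lower in the CRC lines). edgeR called 0 of 19964 genes (0.0%), 542 (2.71%) had an unadjusted p under 0.05, and none of the 10 genes was among these. DESeq2 called 143 genes. The log2 fold change of SMAD4 was then 0.52 (SE 0.5) and that of TGFBR2 0.29 (SE 0.449), both with an edgeR adjusted p = 0.999. Over the 10 genes, the library labelled NCM460 lay nearer to HCT116 (median absolute log2 difference 0.35, and 8 of 10 within 1) than to HIEC6 (1.02, and 5 of 10 within 1).

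Among the CRC lines, HCT116 stood apart from DLD1 and HCT8 in both activin and TGF-β genes. TGFB2 was 18.2-fold lower in HCT116, SMAD7 6.54-fold, ACVR2A 2.63-fold and TGFBR2 1.54-fold, whereas SMAD3 was 2.6-fold and TGFB1 2.07-fold higher. In this fit the 6 CRC libraries were used with treatment as a term, so that each line had 2 libraries that differ in treatment. Its coefficient of variation was 0.295, against 0.8758 for the 6 libraries without the line as a term, so the calls describe these 3 lines. edgeR called 6 of the 10 genes, 2 higher and 4 lower, against a background of 32.8% of 21045 genes (18.4% higher and 14.4% lower). The median log2 fold change was -0.02 over the 10 genes and -0.02 over all genes tested.

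The log2 fold change of TGFB2 was -4.18 (SE 0.352, edgeR adjusted p = 6.37e-05) and that of SMAD7 was -2.71 (SE 0.43, edgeR adjusted p = 0.00204). Both HCT116 libraries lay below all 4 libraries of DLD1 and HCT8 for these genes. ACVR2A had a log2 fold change of -1.40 (SE 0.224, edgeR adjusted p = 0.00215) and SMAD3 of 1.38 (SE 0.282, edgeR adjusted p = 0.007), again without overlap between the lines. Leaving out 1 HCT116 library moved SMAD7 to -3.71 (without the hypoxia library) or -1.88 (without the untreated one), SMAD3 to 0.69 or 2.01 and TGFB1 to 0.70 (0.695) or 1.42, in the same order. TGFB1 had a log2 fold change of 1.05 (SE 0.208, edgeR adjusted p = 0.006). Untreated HCT116 (89.4 CPM) lay below HCT8 under hypoxia (93.9 CPM), and the call of TGFB1 was lost without that HCT8 library (edgeR adjusted p = 0.0521).

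TGFBR2 had a log2 fold change of -0.62 (SE 0.178, edgeR adjusted p = 0.0294). It lost its call when any of 5 of the 6 libraries was left out (edgeR adjusted p from 0.0552 to 0.146) and kept it without HCT116 under hypoxia (edgeR adjusted p = 0.0452). The direction stayed the same, from -0.64 to -0.57. The other 4 genes did not pass: SMAD2 had a log2 fold change of 0.49 (edgeR adjusted p = 0.073), ACVR1B 0.40, TGFBR1 -0.32 and SMAD4 0.27. Where strand is not kept in counting, reads of an overlapping gene cannot be told apart, and 6.68% of the exon bases of ACVR2A are shared with ORC4, 6.59% of those of TGFB1 with HNRNPUL1 and 11.59% of those of TGFB2 with TGFB2-AS1.

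**Figure D3:**
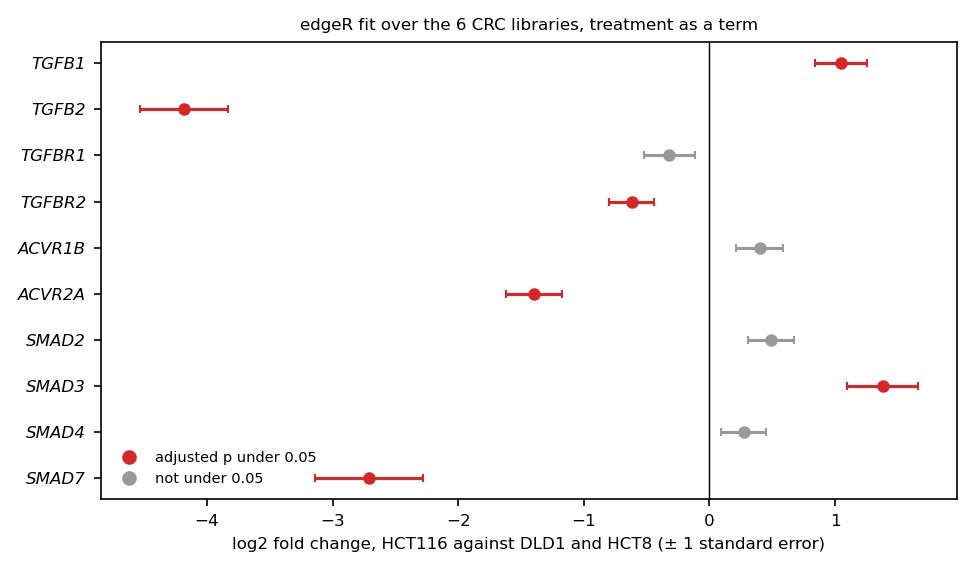
Log2 fold change of HCT116 against the mean of DLD1 and HCT8 for the 10 genes, from edgeR over 6 libraries, with bars of 1 standard error. Red points have an adjusted p under 0.05. TGFB2 (-4.18), SMAD7 (-2.71), ACVR2A (-1.40) and TGFBR2 (-0.62) lie to the left and TGFB1 (1.05) and SMAD3 (1.38) to the right.

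Over the rest of the pathway, 75 genes in 6 lists by role, 69 were tested between HCT116 and the other CRC lines, of which 30 were called higher and 15 lower by edgeR. Over all genes tested 18.4% were called higher and 14.4% lower, which is the background of each list below. The median log2 fold change was 0.38, and -0.02 over all genes tested. Of 9 other ligands tested, 3 were higher and 4 lower. BMP6 and BMP7, bone morphogenetic proteins, measured 3.43 and 16.8 CPM in untreated HCT116 and at most 0.0391 and 0.228 CPM in untreated DLD1 and HCT8. INHBB, the chain that forms activin B, measured 0.344 CPM in untreated HCT116, 27.0 CPM in DLD1 and 12.9 CPM in HCT8, a log2 fold change of -5.34 (SE 0.356). BMP2, another bone morphogenetic protein, measured 0.0383, 13.8 and 3.91 CPM in the same order. INHBA, the chain of activin A, stayed at or below 0.203 CPM in all 8 libraries.

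Of 10 other receptors and coreceptors, 3 were higher and 3 lower in HCT116. TDGF1, the coreceptor of NODAL, had 0 counts in untreated HCT116 (which allows up to 0.0574 CPM), 7.71 CPM in DLD1 and 2.72 CPM in HCT8, and BMPR1B, a type I receptor for bone morphogenetic proteins, measured 0.0383, 18.1 and 14.9 CPM. ACVR2B, the second type II activin receptor, measured 95.1 CPM in untreated HCT116, 36.2 CPM in DLD1 and 55.5 CPM in HCT8, with a log2 fold change of 1.64 (SE 0.224). ACVR2B lay higher in the line where ACVR2A lay lower. ACVR1C, a type I receptor, had a log2 fold change of 2.39 (SE 0.464). Of 4 other SMADs, SMAD9 (1.83) and SMAD6 (1.02) were higher.

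Among 13 genes of ligand storage, activation and inhibition, 7 were higher and 3 lower. ITGB6 and THBS1, both activators of latent TGF-β, had log2 fold changes of -5.00 (SE 0.393) and -4.28 (SE 0.314), THBS1 measuring 17.1 CPM in untreated HCT116, 337 CPM in DLD1 and 811 CPM in HCT8. FSTL1, a secreted follistatin-like protein, measured 27.3 CPM in untreated HCT116 and at most 0.266 CPM in untreated DLD1 and HCT8, and NOG, an inhibitor of bone morphogenetic proteins, 0.727 CPM and 0 counts in both. Among 18 intracellular regulators, 5 were higher and 2 lower. SMURF2, a ubiquitin ligase that targets the receptors together with SMAD7, had a log2 fold change of 3.32 (SE 0.171), and BAMBI, a pseudoreceptor that blocks signaling, of -2.36 (SE 0.311). TGIF1, a SMAD corepressor, and FKBP1A, which binds type I receptors, had log2 fold changes of 1.03 and 0.94.

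Of 15 targets, 10 were higher and 3 lower in HCT116. TGFBI, named for its induction by TGF-β, measured 0.0383 CPM (2 counts) in untreated HCT116, 177 CPM in DLD1 and 18.0 CPM in HCT8, and 4.21 CPM in HCT116 under hypoxia. FN1 (fibronectin) and SNAI2, a transcription factor of mesenchymal cells, had log2 fold changes of 4.23 (SE 0.396) and 3.45 (SE 0.68), and CDKN2B, a cell cycle inhibitor, of 3.35 (SE 0.356). These targets answer to other pathways too. The epithelial marker list was lower in HCT116 for 8 of 10 genes. The fibroblast marker list was higher for 4 and lower for 1 (PDGFRB, -1.93) of 10 tested genes. FN1 and COL1A1, both called higher, are in the target list and in the fibroblast marker list. The part of these markers in the values of the pathway genes was not tested.

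**Figure D4:**
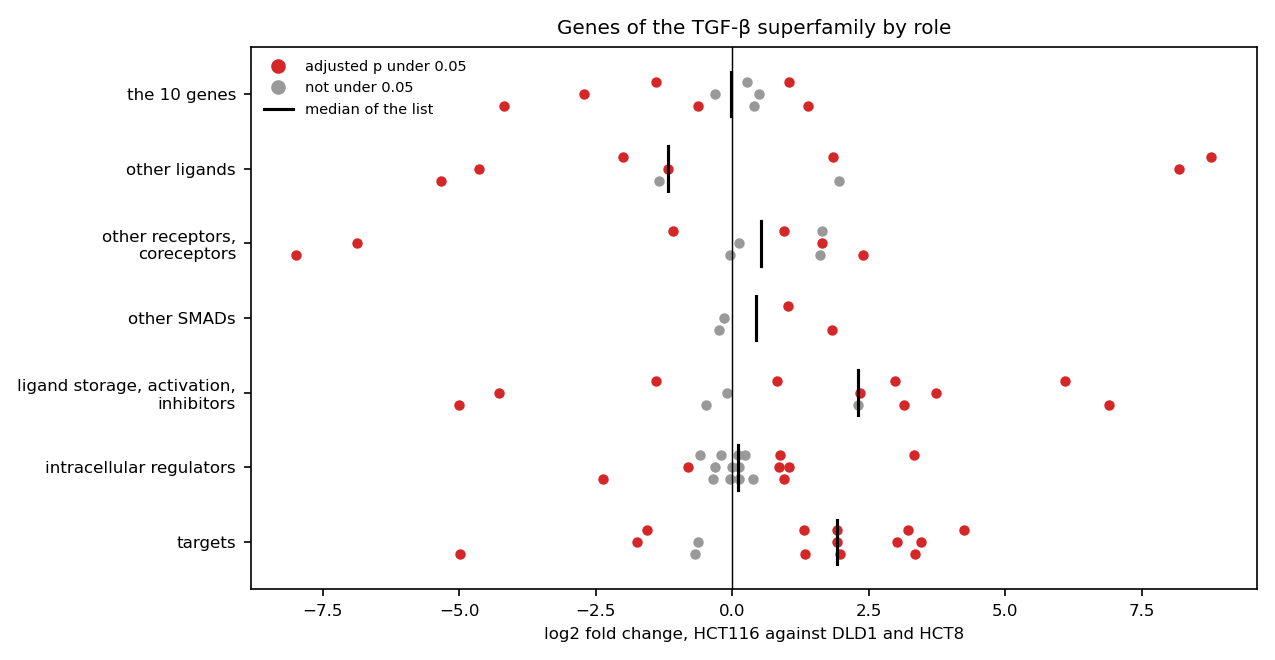
Log2 fold change of HCT116 against DLD1 and HCT8 for the genes tested in each list (x axis), from edgeR over 6 libraries. Red points have an adjusted p under 0.05 and black bars mark the median of a list. The targets (10 higher and 3 lower of 15) and the genes of ligand storage, activation and inhibition (7 higher and 3 lower of 13) have medians of 1.91 and 2.31, and the 10 genes one of -0.02.

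Hypoxia passed the test for none of the 10 genes, and the largest differences were in HCT116. SMAD7 had 190 counts in untreated HCT116 and 647 under hypoxia, a log2 difference of 2.04 after TMM normalization (95% counting interval 1.81 to 2.27), against 0.43 in HCT8 and 0.04 in DLD1. SMAD3 differed by 1.33 in HCT116, 0.11 in HCT8 and -0.04 in DLD1, and TGFB1 by 0.99, 0.28 and 0.30. TGFBR2 differed by -0.02 in HCT116, -0.03 in HCT8 and -0.09 in DLD1. In HCT116 4 of the 10 genes differed by over 0.5 (SMAD7, SMAD3, TGFB1 and TGFBR1), in HCT8 1 (TGFB2, -0.87) and in DLD1 0.

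The TMM factor of HCT116 under hypoxia was 0.7709, and its 10 highest genes held 13.1% of all counts against 6.03 to 8.86% in the other libraries. In CPM its differences were therefore lower: SMAD7 1.68, SMAD3 0.98, TGFB1 0.63 and TGFBR1 0.35, while TGFBR2 was -0.38, ACVR2A -0.81 (-0.45 after TMM normalization) and SMAD4 -0.17 (0.18 after TMM normalization). Each line had 1 pair, so none of these differences within a line could be tested.

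**Figure D5:**
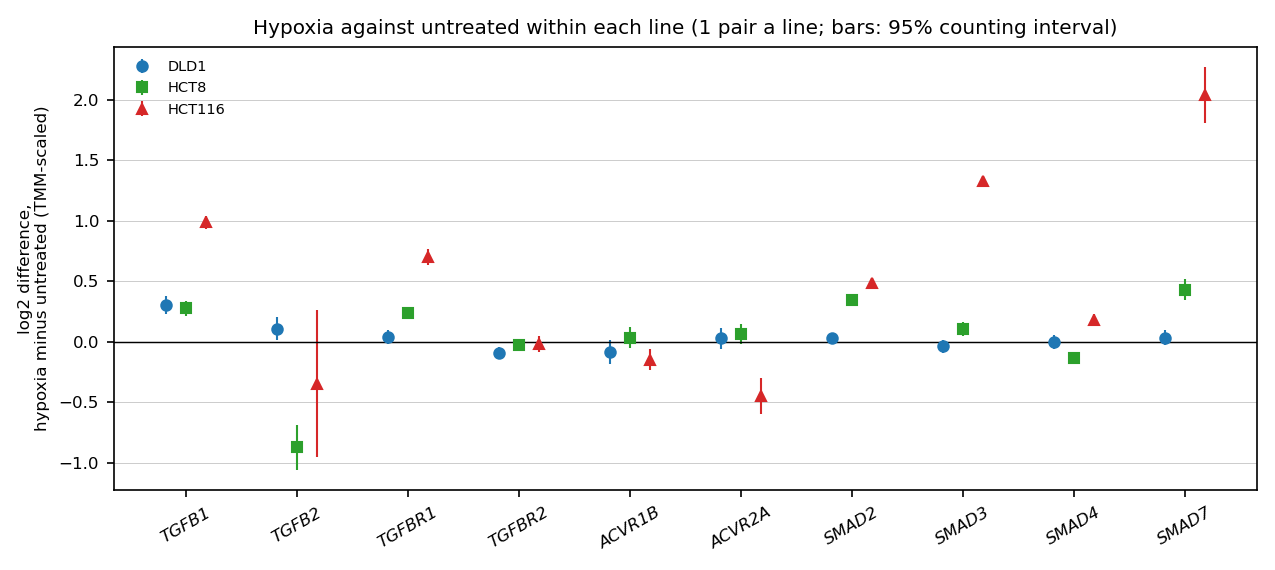
Log2 difference of hypoxia from untreated after TMM normalization for the 10 genes in DLD1, HCT8 and HCT116 (1 pair of libraries per line). Bars are 95% counting intervals and hold no replicate error. SMAD7 (2.04), SMAD3 (1.33) and TGFB1 (0.99) in HCT116 lie highest and TGFB2 in HCT8 (-0.87) lies lowest.

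Over the 3 lines, edgeR without the line as a term called 0 of 21045 genes (0.0%), 607 of which (2.88%) had an unadjusted p under 0.05, none of them among the 10, and DESeq2 called 55. With the line as a block, edgeR called 200 genes (0.95%, with 0.741% higher and 0.209% lower) and again 0 of the 10. In the blocked fit TGFB1 had a log2 fold change of 0.52 (SE 0.202, edgeR adjusted p = 0.222) and was 1 of the 3884 genes (18.5%) with an unadjusted p under 0.05. SMAD7 had 0.80 (SE 0.36, edgeR adjusted p = 0.286), SMAD3 0.46 (SE 0.276, edgeR adjusted p = 0.418) and TGFB2 -0.37 (SE 0.27, edgeR adjusted p = 0.51). After TMM normalization 5 of the 10 genes moved the same way in all 3 lines, 4 higher (TGFBR1, SMAD2, SMAD7 and TGFB1) and TGFBR2 lower, against 45.4% of all genes tested (24.0% higher and 21.4% lower). The moves of TGFBR2 in HCT116 and HCT8, and of TGFBR1, SMAD2 and SMAD7 in DLD1, lay within counting error. Of these genes only TGFB1 moved beyond counting error in all 3 lines. For no gene of the 10 were the untreated and hypoxia groups separate in CPM, against 9.5% of the genes tested (3.06% higher and 6.44% lower).

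As a check of the labels, 16 of 16 hypoxia response genes had a positive log2 fold change under hypoxia, and 12 were called with the block and 0 without it. Over all 21045 genes tested, 10995 had a positive log2 fold change with the block and 11423 without it. The list of hypoxia response genes was chosen with earlier results of these data known. Of the 69 other pathway genes tested, 2 were called with the block. SMAD9, a SMAD of the bone morphogenetic protein branch, had a log2 fold change of 2.11 (SE 0.322, edgeR adjusted p = 0.0311), and rose from 0.156 to 0.889 CPM in DLD1, from 3.97 to 16.6 CPM in HCT8 and from 3.04 to 8.85 CPM in HCT116. FN1 had a log2 fold change of 2.80 (SE 0.42, edgeR adjusted p = 0.0295). FN1 measured 55.8 and 92.6 CPM in DLD1 and HCT116 under hypoxia against 5.47 and 14.2 CPM untreated, and only 0.461 against 0.266 CPM in HCT8. DLD1 and HCT116 under hypoxia and the library labelled NCM460 (52.3 CPM of FN1) are the 3 libraries that share a second run label. In these 3 the fibroblast marker list, which includes FN1, summed to 102 to 182 CPM, of which FN1 gave 52.3 to 92.6 CPM. The list summed to 15.0 to 45.5 CPM in the other CRC libraries and to 1402 CPM in HIEC6, where VIM gave 1223 CPM. Its collagens COL1A2 and COL6A3 measured 7.99 to 13.1 and 4.86 to 7.29 CPM in these 3 libraries and at most 1.25 and 0.785 CPM in the other 5. COL3A1 measured 3.98 to 5.04 CPM against at most 1.43 CPM. PDGFRB and ACTA2 did not follow. PDGFRB measured 0.529 to 1.88 CPM in these 3 libraries, but 8.46 CPM in HCT8 under hypoxia and 8.6 CPM in HIEC6. ACTA2 measured 1.99 to 9.88 CPM in these 3 and 2.91 to 8.57 CPM in the other CRC libraries. LUM and DCN measured at most 0.379 CPM in all 8 libraries. The part of these markers in the hypoxia results was not tested. Among the 6 CRC libraries, untreated and hypoxia libraries share no run label, so run and treatment cannot be told apart.

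The genes whose levels followed TGFBR2 most closely over the 8 libraries were LOC107984660, SCLT1 and CEP164 (Pearson's r of log2(CPM + 1) 0.986, 0.985 and 0.984). For TGFB2 they were LOC105373989, HENMT1 and HDGFRP3 (0.995, 0.988 and 0.987). HENMT1, a small RNA methyltransferase, measured 26.6 CPM in HIEC6, 36.9 CPM in DLD1 and 16.9 CPM in HCT8 and at most 0.217 CPM in HCT116 and the library labelled NCM460. These are the highest of 21647 correlations each, and the 8 points are 5 lines, 3 of them sampled in pairs, so they describe the pattern of lines only.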

How the data were processed

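The authors deposited raw counts per gene (whole reads, not normalized) for 8 libraries of total RNA. Their text names GRCh37.p13 as the genome, while the submitters' processing notes list HISAT2 2.0.4 and GRCh38. The counter, the strand setting and the treatment of reads with several matches are not given in the sources used here. All 8 columns were used (0 left aside) and matched to samples by the labels.

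The 10 genes, the gene lists, the tests and the alternatives were chosen with earlier results of these data known. A gene entered a fit when 2 or more of its libraries reached 10 counts, and was tested with edgeR 4.0.16 (TMM, glmQLFit, glmQLFTest, Benjamini-Hochberg adjustment over all genes tested, threshold 0.05) in R 4.3.3. The SE is the log2 fold change divided by the root of F. Named beside the 10 genes are, per list and comparison, at most 4 genes with the largest absolute log2 fold change among those called (where none was called, among genes tested with a mean log2 CPM above 1), the 3 genes most correlated with TGFBR2 and with TGFB2, and label checks; INHBA was named after its values were seen. Differences between single libraries used a pseudocount of 0.5. In the hypoxia comparison the replicate number is the cell line: the correlation of deviations from the group mean was 0.836, 0.857 and 0.82 within a line, against -0.611 to -0.0599 between lines, so the numbers pair the samples. In the other comparisons a shared number joins different lines. The alternatives were DESeq2 1.42.0, limma-trend (limma 3.58.1), upper-quartile scaling, other filters, added libraries, the block and each library left out. The procedure was also run on simulated data. These varied less than the libraries in the fits without the line as a term (coefficient of variation 0.7311 to 0.8758). The simulation therefore does not cover those fits. Positions come from GENCODE 44 lifted to GRCh37.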

Additional observations from a re-analysis of the deposited data

How the results depend on the processing

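Counts of called genes moved with the tool. DESeq2 called 143 genes between CRC and normal lines, 4206 against HIEC6 and 55 under hypoxia, where edgeR called 0 in each. Against HIEC6, limma-trend called 76 genes, no filter on low counts 42, and the hypoxia libraries added as a group 127. For HCT116, requiring at least 10 counts in every library gave 4601 calls in place of 6911, and leaving out 1 library gave 4337 (without HCT8 under hypoxia) to 7575. Under hypoxia the replicate block (the cell line) gave 200 calls, with DESeq2 1666, and with a line left out 6 (without HCT8), 292 (without DLD1) and 738 (without HCT116). The block changed no call of the 10 genes.

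Of the fits of the 10 genes, signs turned in 12 of 120 between CRC and normal lines, 6 of 90 against HIEC6, 21 of 170 under hypoxia and 0 of 110 for HCT116, none of them called, and the cause was not tested. TGFB2 between CRC and normal lines was 0.01 with upper-quartile scaling (0.0149), 0.97 with limma-trend and 0.64 with the replicate block, which there joins different lines. Against HIEC6, ACVR1B was 0.04 with upper-quartile scaling (0.0415) and SMAD7 -0.23 with limma-trend. Under hypoxia, ACVR2A was 0.02 with upper-quartile scaling (0.0163) and SMAD4 -0.01 with no filter (-0.00814). With 1 library left out, the log2 fold change between CRC and normal lines ranged from -0.16 to 0.95 for TGFBR2, -0.21 to 0.49 for SMAD2, -0.86 to 0.06 for SMAD3 (0.063), -0.01 (-0.00715) to 1.36 for SMAD4, -0.32 to 0.88 for TGFB1 and -1.29 to 5.18 for TGFB2, the highest being without HIEC6. Against HIEC6 it ranged from -0.27 to 0.02 (0.0169) for TGFBR2, -0.29 to 0.02 (0.024) for ACVR1B, -0.20 to 0.23 for SMAD3 and -0.39 to 1.10 for SMAD7. Under hypoxia it ranged from -0.23 to 0.10 for TGFBR2, -0.36 to 0.32 for ACVR2A, -0.21 to 0.10 for ACVR1B, -0.26 to 1.09 for SMAD3, -0.16 to 0.20 for SMAD4, -0.27 to 1.26 for SMAD7 and -1.98 to 1.05 for TGFB2. With the replicate block it ranged from -0.21 to 0.03 for ACVR2A (0.0285) and -0.08 to 0.09 for SMAD4 (-0.0839 to 0.0924). For HCT116, SMAD2 passed with DESeq2 (0.52, adjusted p = 0.0479) and without untreated HCT116 (0.67, edgeR adjusted p = 0.0328). Depth limited TGFB2 most, with 19 to 54 counts in its 3 lowest libraries.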

Other observations

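Against HIEC6, edgeR called none of the 67 other pathway genes tested in the untreated CRC lines. Of these, 33 had a positive log2 fold change, against 10725 of all 18994 genes tested. The median of the 67 genes was -0.01 (-0.00847), against 0.19 over all genes tested. The gene with the largest absolute log2 fold change in each list (mean log2 CPM above 1) was higher in 3 lists and lower in 3. BMP7, a bone morphogenetic protein, measured 0.0176 CPM (1 count) in HIEC6 and 16.8 CPM in HCT116, but 0 counts in DLD1 and 0.228 CPM in HCT8. TDGF1, the coreceptor of NODAL, had 0 counts in HIEC6 and in HCT116 and measured 7.71 CPM in DLD1 and 2.72 CPM in HCT8. Of 9 other receptors and coreceptors tested, 6 had a positive log2 fold change, against the 10725 of 18994 genes given above. ACVR2B measured 11.4 CPM in HIEC6 and 36.2 to 95.1 CPM in the CRC lines (2.21). The coreceptor TGFBR3 was lower, with 136 CPM in HIEC6 and 17.4 to 54.3 CPM in the CRC lines (-1.99). ENG, another coreceptor, measured 110.8 CPM in HIEC6 and at most 0.171 CPM in these lines, too low to enter the fit. HMGA2, a chromatin protein among the targets, measured 1.04 CPM in HIEC6 and 18.3 to 151 CPM in the CRC lines (log2 fold change 5.81, SE 2.0, edgeR adjusted p = 0.302).

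SMAD6, the inhibitor of the bone morphogenetic protein branch, measured 125 CPM in HIEC6 and 3.24 to 28.4 CPM in the CRC lines (-3.28, SE 1.05, edgeR adjusted p = 0.283). PMEPA1, an inhibitor that TGF-β induces, measured 96.5 CPM in HIEC6 and 2.16 to 13.5 CPM in these lines (-3.87, SE 0.931, edgeR adjusted p = 0.235). FSTL1 measured 683 CPM in HIEC6 and 0.215 to 27.3 CPM in these lines (-6.38, SE 2.78, edgeR adjusted p = 0.367). HIEC6 lay outside the range of the CRC lines for HMGA2, SMAD6, PMEPA1, FSTL1, ACVR2B and TGFBR3, as it did for 65.8% of the genes tested. It lay inside that range or at its end for BMP7 and TDGF1. HIEC6 is 1 library, so what differs by line and what by normal origin cannot be told apart.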
